A study of Homo sapiens with 2 samples.

Results

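The stretch of chromosome 21 that runs from ERG to the upstream flank of TMPRSS2 held 37 of the 36797 GATA2 peaks in the deposited list. The interval was set as 39.64 to 42.98 Mb of hg19, and a peak was counted in it where its midpoint lay there. The gene positions were taken as given with that definition, to the nearest 1 kb: ERG at 39.739 to 40.034 Mb and TMPRSS2 at 42.836 to 42.880 Mb. Both genes are read from the minus strand, so the higher coordinate is the start of each gene and upstream is towards higher coordinates. The interval was also given as 5 areas: 99.0 kb downstream of ERG with 1 peak, ERG with 3, the 2802 kb between the genes with 29, TMPRSS2 with 1 and the 100 kb upstream of TMPRSS2 with 3.

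The peaks come from chromatin immunoprecipitation and sequencing (ChIP-seq) of GATA2 in LNCaP, a human line of prostate cancer cells that respond to androgen. There was 1 group of 2 replicate samples, with no genetic change or drug named in the labels, from cells grown in 10% fetal bovine serum (FBS) and held for 3 days in 5% charcoal-treated FBS, which is depleted of steroid hormones. All cells were therefore in low-hormone medium, and no hormone-treated, input or antibody control group was analysed here. One list of peaks stood for both samples, so there is no spread between replicates, no test of a difference could be made, and the intervals below cover counting only. The read depth behind each peak is unknown, and a place with no peak is not shown to be free of GATA2. A peak list carries no measure of cell identity, so the labelled cell line was not checked against markers.

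GATA2 is a zinc-finger transcription factor that binds sequences with a GATA core, and in prostate cancer cells it is known to act at many enhancers together with the androgen receptor and FOXA1. TMPRSS2 encodes a membrane-anchored serine protease made by prostate epithelium under androgen control, and an androgen receptor-bound enhancer upstream of it is well known. ERG encodes a transcription factor of the ETS family that is active in endothelial and blood cells and is normally low in prostate epithelium. In many prostate cancers the start of TMPRSS2 is joined to ERG, usually with loss of the DNA between them, which places ERG under TMPRSS2 control. LNCaP is known not to carry this fusion, although its genome is rearranged elsewhere. The copy number of the interval in these cells was not measured here.

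TMPRSS2 had a close group of GATA2 peaks on both sides of its start. The peak inside the gene lay at positions 42872950 to 42873286 of chromosome 21, about 6.9 kb from the start. It was 337 bp wide, and its score was 727.8, in place 3282 of the list. The score is a value the authors' peak caller gave each peak, with no stated scale. It runs from 80.01 to 3100 in the list and is used here only to rank peaks. Upstream of TMPRSS2, the first peak lay at 42892573 to 42892931, about 12.8 kb from the start, and scored 107.0. The next, at 42893539 to 42893990, about 13.8 kb upstream, scored 605.6. The farthest, at 42902291 to 42902684, about 22.5 kb upstream, scored 804.2, the second-highest score of the interval. Distances here are from the TMPRSS2 start given with the interval's definition, and other starts of TMPRSS2 were not examined. A peak called upstream here may therefore lie at or downstream of another start. Of these 4 peaks, 3 ranked in the first 12.8% of the list and the remaining one at 84.4%.

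**Figure D1:**
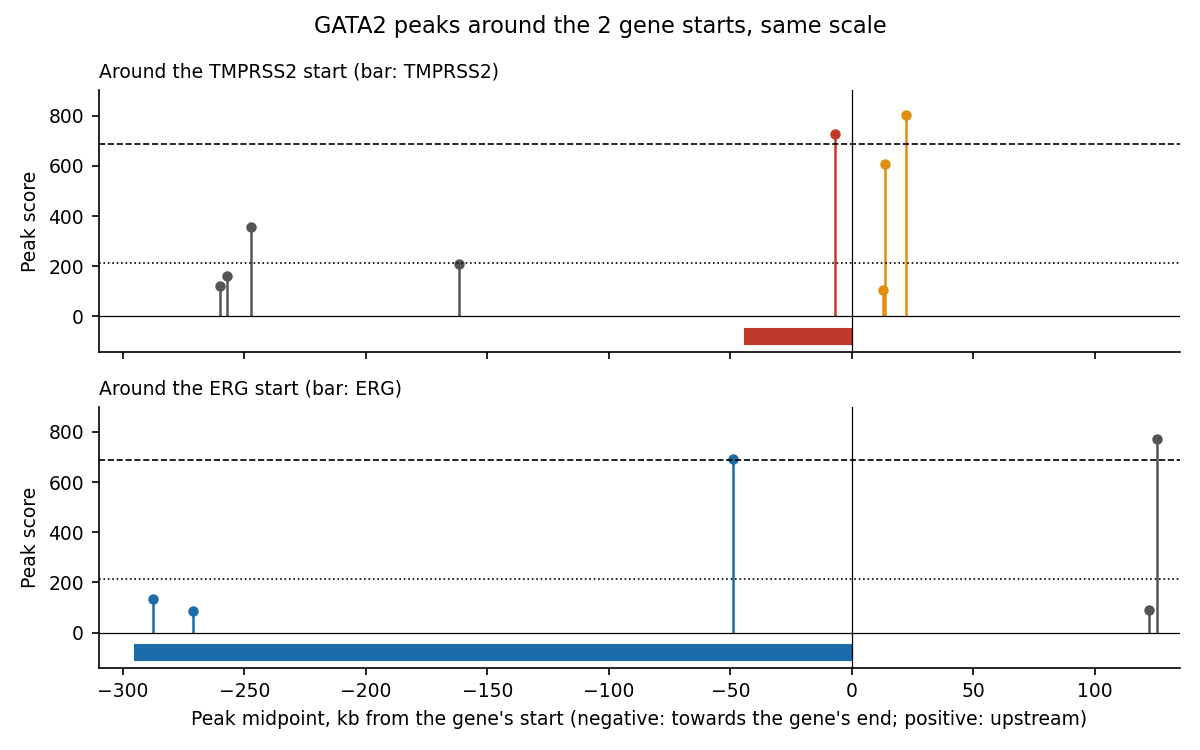
Position (kb from each gene's start; negative towards the gene's end, positive upstream) and score (authors' value) of each GATA2 peak, as 1 stick per peak, around the TMPRSS2 start and the ERG start on the same scale. Coloured bars are the genes, the dashed line is the limit of the best-scoring 10% of the list (686.9) and the dotted line its median (212.2); TMPRSS2 has 4 peaks from 6.9 kb inside to 22.5 kb upstream, and ERG has none from 49.0 kb inside to 123 kb upstream.

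The 4 peaks at TMPRSS2 spanned 29.7 kb, and the 3 upstream of the gene spanned 10.1 kb from first to last. The low-scoring peak and its high-scoring neighbour were separated by 607 bp. The other gaps were 19.3 kb, across the TMPRSS2 start, and 8.30 kb, between the last upstream peaks. On the far side of the group no peak lay for 297.3 kb, so the remaining 77.3 kb of the 100 kb upstream were empty. On the near side no peak lay for 154.4 kb, which takes in the part of TMPRSS2 towards its end. The TMPRSS2 peaks stood apart from the nearest other peaks on both sides. Among the 35488 autosomal peaks, 1434, or 4.04%, were the first of at least 4 peaks within the same midpoint span of 29.4 kb. That span and count were taken from the TMPRSS2 group itself, so the share is a description and no test of clustering. With 3 peaks, the 100 kb upstream of TMPRSS2 had a count that 17.1% of 26907 autosomal windows of 100 kb reached or passed.

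The weaker upstream peak was wide for its score. It was 359 bp wide, while the 1000 peaks nearest to it in score had a median width of 192 bp, and 98.0% of those were narrower. The 727.8-scoring peak inside TMPRSS2 was at the other end, with 4.60% of peaks of similar score narrower than its 337 bp and a median of 424 bp. The upstream peaks scoring 605.6 and 804.2, at 452 and 394 bp, had 74.7% and 21.7% of such peaks below them. No hg19 genome sequence was used here, so the sequence under these peaks and their exonic or intronic place were not analysed.

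ERG had 3 GATA2 peaks over its 295.0 kb, 1 of them high-scoring. That peak lay at 39984816 to 39985222, about 49.0 kb inside the gene from its start, and was 407 bp wide with a score of 693.3 (9.81% of the way down the list). Both others lay near the end of ERG. One, at 39746456 to 39746525, scored 136.1, and the other, at 39762835 to 39763060, scored 85.30, the lowest of the 37. The peak at 39746456 was 70 bp wide, the narrowest of the interval, and 0.50% of peaks of similar score in the list were narrower. Between the end pair and the high-scoring peak, 221.8 kb of ERG held no peak. The middle section of the gene, when cut into 3 equal ones, held 0, which allows a density of up to 37.5 peaks per Mb by the exact Poisson interval. A single peak lay in the 99.0 kb downstream of ERG, at 39715769 to 39716097, with a score of 362.6.

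No GATA2 peak lay in the 100 kb upstream of the outermost ERG start, against 3 in the same length upstream of the TMPRSS2 start used here. RefSeq also gives ERG starts inside the gene, and no distance was measured from those. A peak inside ERG, such as the high-scoring one, may therefore lie upstream of an internal start. The exact Poisson 95% intervals overlapped, at 0 to 36.9 and 6.19 to 87.7 peaks per Mb, and no test of this difference was made. The nearest upstream peak to ERG was about 123 kb away, at 40156430 to 40156669, with a score of 89.98. A stronger one, with a score of 769.7, followed at 40159460 to 40159817. Measured from the start of each gene to the nearest midpoint on either side, the distance was 6.9 kb for TMPRSS2 and 49.0 kb for ERG. Over 2693617 autosomal positions taken every 1 kb, the median distance was 31.3 kb, and 15.7% of positions were as close to a peak as the TMPRSS2 start. For the ERG start that share was 64.2%. These positions are not gene starts, so the shares describe the spacing of the list and not how usual the distances are among genes.

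The reference sequence at the starts of ERG shows how the gene's promoter windows differ in GATA content. RefSeq gives 4 windows for ERG in GRCh38.p14, each from 250 bases before to 50 after a transcript start. The windows of 2 starts are shown, because the most upstream start and an internal start differ in the presence of the string GATAA, searched on both strands. Capitals mark GATAA or its reverse complement TTATC. The first is at chr21:38660618-38660917 and the second at chr21:38498455-38498754, both on the minus strand.
ERG most upstream start: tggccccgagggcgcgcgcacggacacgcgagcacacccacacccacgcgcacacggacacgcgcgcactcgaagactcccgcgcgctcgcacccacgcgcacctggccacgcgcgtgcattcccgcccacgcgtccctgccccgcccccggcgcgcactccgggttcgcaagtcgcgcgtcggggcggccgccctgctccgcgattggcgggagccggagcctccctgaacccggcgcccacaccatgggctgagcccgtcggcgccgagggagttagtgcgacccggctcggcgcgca
ERG internal start: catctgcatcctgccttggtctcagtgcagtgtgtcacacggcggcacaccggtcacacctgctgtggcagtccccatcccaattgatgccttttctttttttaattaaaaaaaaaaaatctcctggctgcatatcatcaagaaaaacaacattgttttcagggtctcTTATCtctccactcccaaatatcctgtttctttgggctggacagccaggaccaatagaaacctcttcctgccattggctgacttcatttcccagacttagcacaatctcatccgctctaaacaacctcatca
The most upstream window had no match and 77.0% G and C, and the internal one had 1 match and 45.7% G and C. The remaining 2 windows of ERG held 0 and 1 matches, and the 1 is the same site, since that window overlaps the internal one shown. GATAA occurred in 7985 of the 35116 promoter windows in the table, or 22.7%. A match is a description of letters only, and since these windows are in GRCh38 and the peaks in hg19, no peak was placed on them.

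Between ERG and TMPRSS2, 29 GATA2 peaks lay over 2802 kb, with more of them on the ERG side. In RefSeq the protein-coding genes between the 2, in order from ERG, are ETS2, PSMG1, BRWD1, HMGN1, GET1, the readthrough GET1-SH3BGR, LCA5L, SH3BGR, B3GALT5, IGSF5, PCP4, DSCAM, BACE2, FAM3B, MX2 and MX1. ETS2 is an ETS-family transcription factor like ERG, PSMG1 helps assemble the proteasome, HMGN1 binds nucleosomes, DSCAM is a neuronal adhesion molecule, BACE2 is an aspartyl protease, and MX1 and MX2 are interferon-induced GTPases. This order is from GRCh38, and no peak was assigned to any of these genes. Promoter windows were found for 11 of the 18 genes from ERG to TMPRSS2 and not for SH3BGR, IGSF5, PCP4, BACE2, FAM3B, MX2 and TMPRSS2. Of the 11, 3 had GATAA in at least 1 window (ERG, ETS2 and MX1). The 11 genes had 20 windows, some of which overlap, and 4 held it, against 22.7% of all 35116 promoter windows.

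Cut into 4 equal sections of 700.5 kb, the DNA between the genes held 12, 8, 4 and 5 peaks from the ERG side to the TMPRSS2 side. The first section had 17.1 peaks per Mb (exact Poisson 95% interval 8.85 to 29.9) and the third 5.71 (1.56 to 14.6), and these intervals overlap. The first also held the highest-scoring peak of the whole interval, at 40267096 to 40267588, about 233 kb upstream of ERG. That peak was 493 bp wide, the widest of the 37, and its score of 1143 put it in place 814 of the list. Its section held 2 further peaks of the 10 highest-scoring besides the 769.7-scoring one: the peak at 40589875 to 40590355 with a score of 555.1 and that at 40647424 to 40647704 with 366.6.

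**Figure D2:**
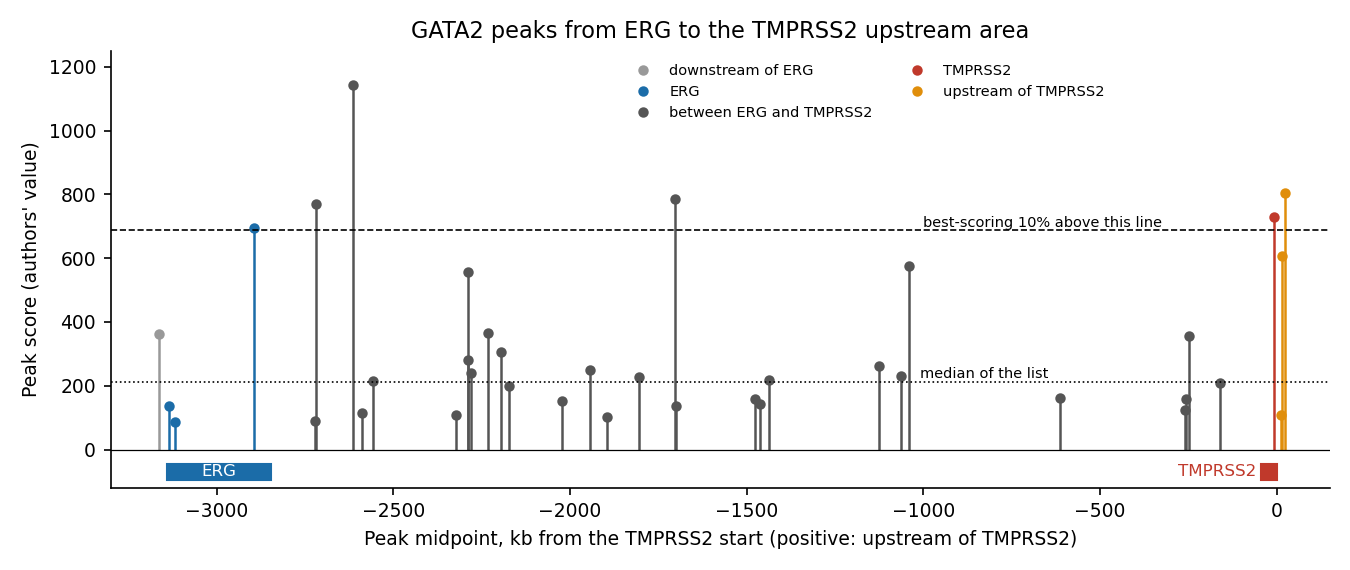
Each of the 37 GATA2 peaks as a stick at its midpoint, in kb from the TMPRSS2 start (positive is upstream of TMPRSS2), with the authors' score as height and bars for ERG and TMPRSS2. The dashed line marks the limit of the best-scoring 10% of the list (686.9) and the dotted line the list's median (212.2); 12 peaks lie in the first 700.5 kb beyond ERG, and 4 lie in a stretch of 1177 kb further on.

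Nearer to the middle, the third-highest score of the interval was at 41175331 to 41175754, with 786.6, and a weaker peak of 136.9 lay 4.31 kb from it. The peak at 41839059 to 41839478, also among the 10 highest-scoring, had a score of 575.7. The section next to TMPRSS2 held 5 peaks, with a highest score of 355.9, at 42632706 to 42633101. Median scores of the 4 sections, from the ERG side, were 260.0, 154.3, 246.9 and 160.9, with no steady order.

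The 3 longest peak-free stretches lay on the TMPRSS2 side. They were 311.7 kb (41443034 to 41754778), 426.2 kb (41839479 to 42265707) and 353.8 kb (42265947 to 42619713). Together they made up 32.7% of the length of the interval. From the first to the last of them, 1177 kb held 4 peaks, or 3.40 per Mb, with scores from 160.9 to 575.7. One of the 4, at 42265708 to 42265946, had its nearest neighbour 354.0 kb away. Stretches of at least 426.2 kb made up 1.56% of autosomal peak-free stretches, those over 2.5 Mb left out, but 13.1% of autosomal length lay in them. The median stretch was 34.5 kb over the 36 of the interval and 40.7 kb over the autosomes. Of 33 whole windows of 100 kb laid from the ERG end of the interval, 15 (45.5%) held no peak, and 35.2% of autosomal windows held none.

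The spacing of the peaks was set beside that of the whole list. Of the 37 peaks, 11 (29.7%, Wilson 95% interval 17.5% to 45.8%) had another midpoint within 10 kb, and 33.2% of all peaks in the list did, a share inside that interval. Runs of at least 3 peaks with successive midpoints at most 12500 bp apart took in 9 of the 37 (24.3%, 13.4% to 40.1%), against 14.4% of the list, which lies in that interval. There were 3 such runs, and with midpoints at most 5 kb apart there were 0, so the run upstream of TMPRSS2 rests on the wider limit too. Besides the one upstream of TMPRSS2, with scores of 107.0 to 804.2, one spanned 11.2 kb (40589456 to 40600687) with scores of 239.3 to 555.1, and one spanned 13.4 kb (42619714 to 42633101) with scores of 123.2 to 355.9. Neighbours over 100 kb away on both sides were found for 2 of the 37, and for 7.79% of the list.

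The scores of the interval ran from 85.30 to 1143, and the 95% intervals of its median and of the medians elsewhere overlapped. The median score was 226.9 (order-statistic 95% interval 160.0 to 304.4), against 205.1 (183.6 to 222.9) for the 537 other peaks of chromosome 21 and 214.3 (211.5 to 216.6) for the 34914 peaks of the other autosomes. The best-scoring 10% held 6 of them, or 16.2% (Wilson 95% interval 7.65% to 31.1%, which includes the 10.0% of the list). Those 6 were 2 at TMPRSS2, the one inside ERG and 3 between the genes. Scores under 100 were found for 2 peaks, and for 11.9% of the list.

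**Figure D3:**
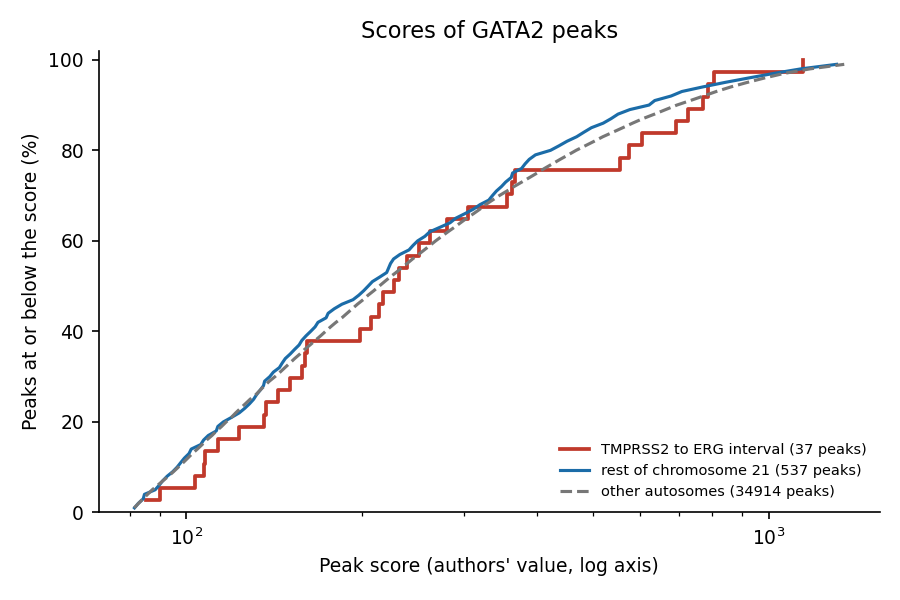
Percent of peaks (vertical) at or below each score (horizontal, authors' value on a log axis) for the 37 peaks of the interval, the 537 other peaks of chromosome 21 and the 34914 peaks of the other autosomes, the last 2 drawn from the 1st to the 99th percentile. The 3 lines run close together, with medians of 226.9, 205.1 and 214.3.

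With all peaks counted, there were fewer per Mb in the interval than in the rest of chromosome 21. The interval had 11.1 peaks per Mb (exact Poisson 95% interval 7.80 to 15.3), the rest of chromosome 21 had 16.8 (15.4 to 18.2) and the other autosomes had 13.1 (13.0 to 13.3). The ratio to the rest of chromosome 21 was 0.66 (exact conditional binomial 95% interval 0.46 to 0.92). Leaving out the 1 Mb on each side of the long peak-free stretch of chromosome 21, where low-scoring peaks are dense, it was 0.70 (0.49 to 0.98). For the better-scoring 50% of peaks the ratio was 0.77 (0.47 to 1.21), an interval that includes equal density. It turned over for the best-scoring 10%, at 1.40 (0.49 to 3.32), which rests on the 6 peaks above. To the other autosomes the ratio was 0.84 (0.59 to 1.16), an interval that includes equal density. These intervals take peaks as independent, so they may be too narrow.

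The autosomes were also cut into 776 windows of the interval's length, 3.34 Mb. They held a median of 43 peaks, with the middle 50% of windows between 34 and 53. As few as 37 peaks, or fewer, were found in 275 windows, or 35.4%.

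**Figure D4:**
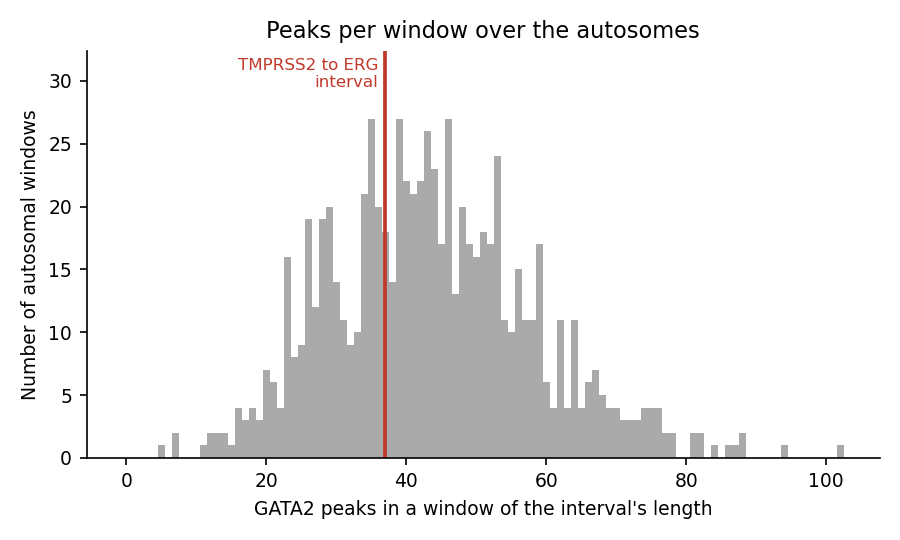
Number of autosomal windows of 3.34 Mb (vertical) by the GATA2 peaks each held (horizontal), 776 windows in all, with a red line at the 37 peaks of the TMPRSS2 to ERG interval. The line lies below the median of 43 and inside the middle 50% of windows, 34 to 53.

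Width went with score in the interval as in the list. Median width was 294 bp (order-statistic 95% interval 243 to 355 bp), against 304 bp for the rest of chromosome 21 and 295 bp for the other autosomes. Spearman's rho between score and width was 0.77 across the 37 peaks and 0.83 across the list, as a description over peaks that share the same libraries. Against the 1000 peaks nearest in score, 19 of the 37 lay in the narrower 50%.

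**Figure D5:**
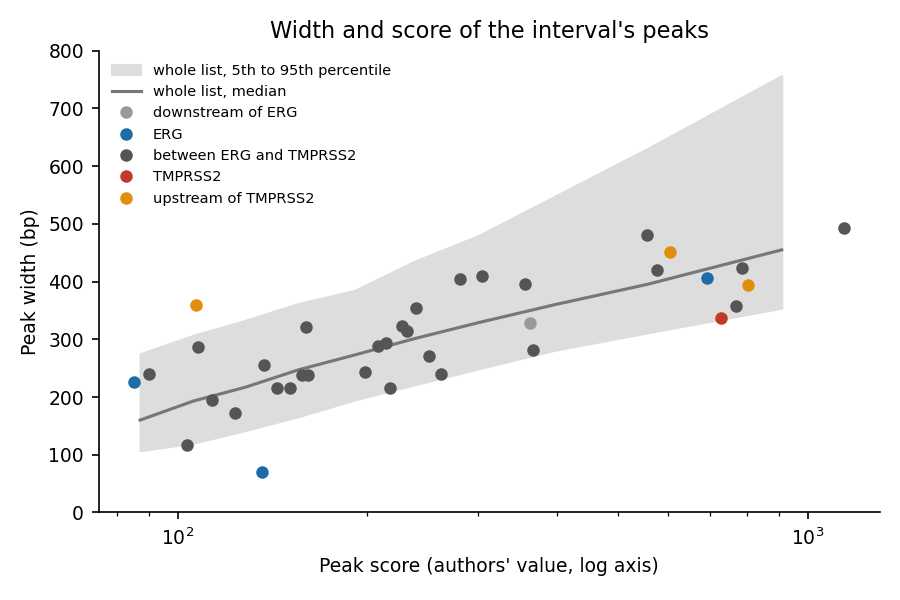
Width in bp (vertical) against score (horizontal, authors' value on a log axis) for each of the 37 peaks, coloured by area, over the median and the 5th to 95th percentile of the whole list in 10 score classes of equal size. The 70 bp peak in ERG lies below the band and the 359 bp peak scoring 107.0 upstream of TMPRSS2 lies above it.

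The edges of the interval were also examined, since its limits were set by position. The last peak before it, at 39633738 to 39634199, lay 6.03 kb outside and 105.0 kb beyond the end of ERG, and its score of 1200 was above that of every peak inside. The first peak inside, downstream of ERG, scored 362.6. Past the other end, the first peak lay at 43199938 to 43200349, about 320 kb upstream of TMPRSS2, with a score of 732.1, while the last inside scored 804.2. Widening the area upstream of TMPRSS2 to 200 kb or narrowing it to 50 kb left its count at 3.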

How the data were processed

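GATA2 ChIP-seq peaks from 2 LNCaP samples (library fragments of about 225 bp, 16 PCR cycles) were analysed from the 1 deposited list. Per the submitters' processing notes, Bowtie and hg19 were used for alignment, and the peak names show calling with MACS, per the labels in the file. Versions, any control library and the pooling of replicates are not stated. The score in the deposited list is the authors' value for each peak, and served here to rank and describe peaks within this list. Depth per sample is unknown.

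Starts were made 1-based. Density was taken over each chromosome from first to last peak, less peak-free stretches over 2.5 Mb. Intervals are 95%: exact Poisson for counts, exact conditional binomial for ratios, order-statistic for medians, Wilson for shares. No test was run. The calculations were tested on simulated data. Named were every peak in or upstream of TMPRSS2 and in ERG, the 10 highest-scoring peaks of the interval, those nearest each start and the 3 longest stretches. Other peaks named (the only one downstream of ERG, a weak neighbour, the fourth section's highest, the isolated peak and those outside the edges) were chosen after their values were seen. The members, areas and rules were chosen with earlier results of these data known. Promoter strings came from RefSeq, GRCh38.p14. Alternatives were score limits, merging, overlap, flank length and spacing. Python 3.11.15, numpy 2.4.6, scipy 1.17.1 and matplotlib 3.10.9 were used.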

Additional observations from a re-analysis of the deposited data

How the results depend on the processing

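There were 40 alternative values, and for 26 the main result's own interval, or a factor of 1.5 for counts and lengths, covered the alternative. The others follow. With the better-scoring 50% of peaks the whole interval held 21 peaks, ERG 1 and the DNA between the genes 16, the median score was 362.6 and the longest peak-free stretch 793.2 kb. The density ratio to the rest of chromosome 21 was then 0.77 (0.47 to 1.21). That value is among the 26, but its interval no longer excludes equal density. With the best-scoring 10% the interval held 6 peaks, ERG 1, the DNA between 3, the area upstream of TMPRSS2 1 and that downstream of ERG 0, the median score was 778.1, and the density ratio was 1.40 to the rest of chromosome 21 and 1.33 to the other autosomes. These limits remove peaks by construction. Why the density ratios rose was not tested. With midpoints at most 5 kb apart there were 0 runs. With 25 kb there were 4, a count that is among the 26. Leaving out the DNA beside the long stretch of chromosome 21 was chosen after seeing the data. No replicate could be left out. No paired analysis was possible because the peaks carry no replicate number and only 1 group exists.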
